A study of Homo sapiens with 12 samples.

Results

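The zinc finger genes of chromosome 19 were taken as the protein-coding genes of that chromosome (GRCh38) whose symbol is ZNF plus digits, with an optional letter, and whose mRNA reached 1 TPM (transcripts per 1000000, a level scaled to the length of the transcript and to the total of the library) in at least 3 of 12 libraries. There were 165 such genes, out of 247 annotated genes of this name and place and out of 15584 genes of any kind that passed the same filter among 63036 listed. Of the 165 genes, 108 reached 1 TPM in all 12 libraries. The other 82 annotated genes did not pass. Among these, 6 were listed at 0 in all libraries, 35 stayed under 0.1 TPM in all, and the highest value of any was 1.8 TPM. Just inside the filter, with 3 libraries at 1 TPM, lay ZNF615 and ZNF432. Just outside, with 2 libraries, lay ZNF442, ZNF546, ZNF628, ZNF71, ZNF773 and ZNF837.

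Messenger RNA of HCT116 and HCT15, human colorectal carcinoma cell lines, was sequenced from control cells and from cells that overexpress RNF26, which encodes a ubiquitin ligase anchored in the membrane of the endoplasmic reticulum. The 4 groups carry the genotype labels HCT116_con, HCT116_ov_RNF26, HCT15_con and HCT15_ov_RNF26, with 3 libraries each. How RNF26 was introduced, what the control cells carried and whether a group is a clone or a pool were not stated in the sources used here. Nothing in the labels marks the replicates as separate cultures, so the p-values measure only how these libraries vary, which may be technical.

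Most of these genes encode proteins with a tandem array of C2H2 zinc fingers, in which each finger can contact a few bases of DNA, so that the array as a whole reads a long sequence. In the largest family the array follows a KRAB box, a short domain that binds TRIM28, a scaffold which brings in the histone methyltransferase SETDB1 and other silencing proteins. Many KRAB zinc finger proteins bind transposable elements and keep them silent. The genes arose by repeated tandem duplication and stand on chromosome 19 in clusters of close relatives, which sets them apart from most transcription factor genes. Members without a KRAB box include ZNF146, a protein made almost only of fingers, and ZNF444, which has a SCAN dimerization domain in place of KRAB.

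A KRAB pattern was found by a search of the translated GENCODE coding sequences in 139 of the 165 genes and not in 26. The number of fingers found in the same way ranged from 0 to 31, with a median of 12. ZNF91, a known repressor of retrotransposons, had the most. The pattern search misses degenerate domains, and ZNF738, with 0 fingers found, lies in a cluster of KRAB genes. In position the 247 annotated genes formed 20 clusters when genes with under 500 kb between neighbours were joined, and 16 with 1000 kb. The 8 clusters with 10 or more annotated genes held 223 of the annotated genes and 145 of the 165 that passed.

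Levels were low. The mean over the 4 groups had a median of 3.37 TPM over the 165 genes, with quartiles of 1.88 and 6.98. ZNF146 stood far above the rest at a mean of 108 TPM. In HCT116 control, HCT116 RNF26, HCT15 control and HCT15 RNF26 libraries it averaged 114 ± 3.18, 123 ± 7.11, 92.2 ± 10.5 and 104 ± 10.02 TPM (SD, n = 3 each). ZNF146 was lower in HCT15 than in HCT116 controls (log2 fold change -0.31, SE 0.0924, limma with Benjamini-Hochberg adjusted p = 0.0107). Next in order came ZNF428 with 27.6 TPM and ZNF787 with 19.3 TPM in HCT116 controls, followed by ZNF561, ZNF581, ZNF544, ZNF226 and ZNF121. ZNF428 did not differ beyond the test between control lines (27.6 ± 1.22 and 33.1 ± 4.36 TPM, SD, n = 3 each, limma adjusted p = 0.0521). It passed with a filter of 5 TPM (0.0483) and without HCT116 RNF26 replicate 3 (0.0412) or HCT15 control replicate 3 (0.0124). The range was 0.0124 to 0.840. Of these 8 genes, 5 (ZNF146, ZNF428, ZNF787, ZNF581 and ZNF121) had no KRAB pattern.

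Over all genes, between 13582 and 14135 reached 1 TPM in a library, and 133 to 146 of the 165 zinc finger genes did. RNF26 mRNA averaged 16.8 ± 1.44 and 296 ± 39.4 TPM in HCT116 control and RNF26 libraries and 27.0 ± 0.762 and 54.2 ± 0.562 TPM in those of HCT15 (SD, n = 3 each). The epithelial genes EPCAM and KRT8 were at 192.9 TPM or more in every library. Of 10 colon epithelial markers 8 were tested, and 6 were higher and 1 lower in HCT15 than in HCT116 controls: VIL1 was at 0.32 to 0.55 TPM in HCT116 libraries, whereas KRT20, the lower one, averaged 1.27 TPM in HCT116 and 0.0233 TPM in HCT15 controls. Summed over 3 endothelial markers the level was at most 0.27 TPM, over 6 fibroblast markers at most 2.80 TPM, and the leukocyte genes PTPRC, CD3E, CD79A and LYZ did not pass the filter. CD14, the leukocyte gene that did, averaged 0.0167 TPM in HCT116 and 6.95 TPM in HCT15 controls, and its part in the line differences was not tested. HCT15 control replicate 3 stood apart, with 25.9% of its TPM in mitochondrial transcripts against 16.4% and 17.7% in the other HCT15 controls. Ribosomal protein genes took 17.5% of that library, 21.8% and 24.3% of the other HCT15 controls and 26.3% to 27.5% of the HCT15 RNF26 libraries. Depth is unknown, since TPM does not carry it. In bulk RNA, fewer cells with a transcript and less of it per cell cannot be told apart.

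The control lines differed in most of these genes. Of 165, 88 were higher and 38 lower in HCT15 than in HCT116 controls (limma, adjusted p under 0.05), and 39 were not called. Among all tested genes 43.6% were called higher and 26.0% lower, so the 53.3% and 23.0% of the zinc finger genes stand near the background, somewhat above it for higher genes. The median log2 fold change was 0.42 for the zinc finger genes and 0.22 for all tested genes. A log2 fold change of 1 or more was reached by 45 genes upward and 15 downward, and by 2772 and 1661 of the 15584 tested genes. Control libraries of the lines did not overlap for 89 genes upward and 39 downward, and for 44.8% and 27.1% of all tested genes. The filter bears on these counts: 129 genes reached 1 TPM in both lines, 21 in HCT15 alone and 15 in HCT116 alone, and a gene that passed through 1 line was likely to differ: 19 of these 21 and all 15 of the others were called. Within the 129 genes 69 were higher and 23 lower, and of 13436 genes of any kind that reached 1 TPM in both lines 42.9% were higher and 23.3% lower. Values of the members also correlated less between lines than those of all genes, with Pearson r of log2(TPM + 1) from 0.573 to 0.630 against 0.842 to 0.861 between any library of one line and any of the other. Within groups r was 0.961 to 0.985 for the members. These r are descriptions over 165 and 15584 genes of the same libraries, and the members cover a narrower range of levels.

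The lines were also compared in their RNF26 libraries. These are not an independent check, since all 12 libraries entered the filter and the estimate of the spread. Of the 88 genes called higher, 83 were higher in HCT15 RNF26 than in HCT116 RNF26 libraries and 78 of them without overlap. Of the 38 called lower, 35 were lower and 32 without overlap. Over all 165 genes, 89 lay higher and 38 lower without overlap in the RNF26 libraries, where 36.3% and 35.5% of all tested genes did.

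**Figure D1:**
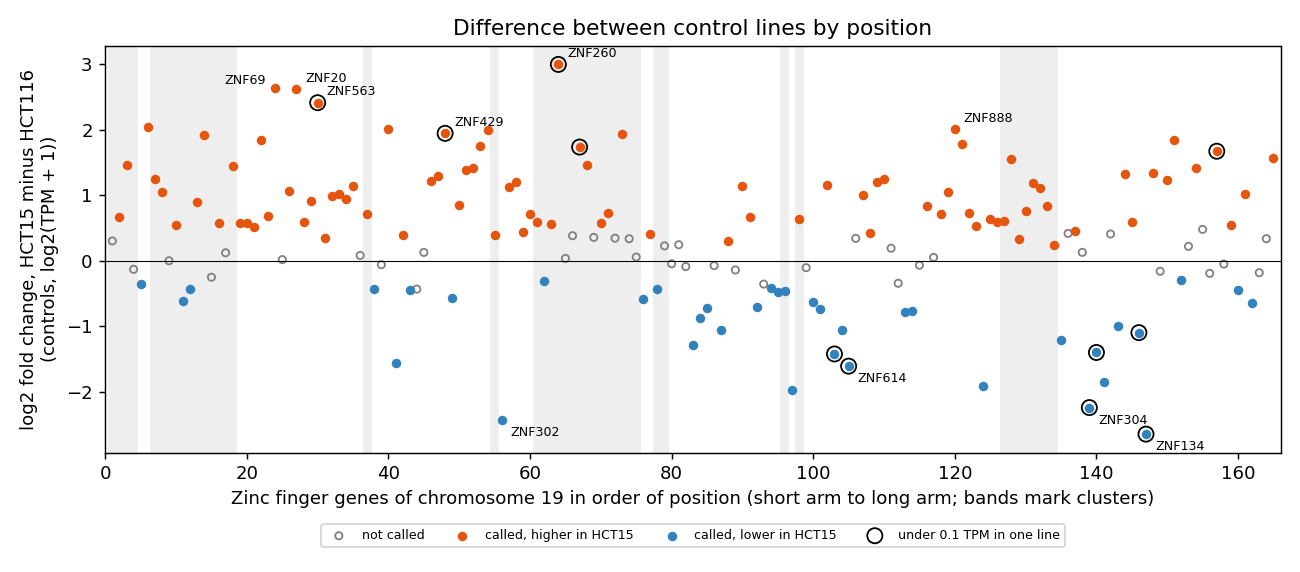
Log2 fold change between control libraries of HCT15 and HCT116 (vertical axis, log2(TPM + 1), limma, n = 3 each) for the 165 genes in order along chromosome 19; filled points are called, grey and white bands mark clusters, and rings mark genes under 0.1 TPM in all 6 libraries of one line. Genes higher in HCT15 (88) outnumber those lower (38), and ringed genes lie on both sides, 5 above 0 and 6 below.

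A set of 11 genes was on in one line and off in the other. These genes were under 0.1 TPM in all 6 libraries of one line and at 1 TPM or more in all 6 of the other. They make up 6.67% of the 165 genes, where 2.18% of all tested genes met the same rule (0.847% on in HCT15 and 1.33% on in HCT116). The rule fixes their difference between lines, so the values are given as a description. On in HCT15 were ZNF563, ZNF429, ZNF260, ZNF420 and ZNF256. On in HCT116 were ZNF350, ZNF614, ZNF304, ZNF547, ZNF530 and ZNF134. For comparison, the rule was met by 5 and 6 of 221 ZNF genes of other chromosomes and by 2 and 7 of 780 other coding genes of chromosome 19.

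ZNF260, a gene of 13 fingers without a KRAB pattern (ENSG00000254004, chr19:36510695-36528660, minus strand), was the gene with the largest difference upward. It was listed at 0, 0.03 and 0 TPM in HCT116 controls and 0.02, 0 and 0 TPM in HCT116 RNF26 libraries. In HCT15 it stood at 8.12, 6.37 and 6.79 TPM in controls and 7.38, 10.99 and 8 TPM with RNF26. All 6 HCT15 libraries lay above all 6 of HCT116. The log2 fold change between controls was 3.00 (SE 0.137) on the log2(TPM + 1) scale, which depends on the pseudocount for a gene listed at or near 0. The rule that picked the gene fixed this difference, so no p is given.

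ZNF134, a gene of 10 fingers without a KRAB pattern (ENSG00000213762, chr19:57614233-57624723, plus strand), had the largest difference downward. In HCT116 it stood at 4.65, 5.89 and 5.29 TPM in controls and 3.23, 4.60 and 3.95 TPM with RNF26. In HCT15 it was listed at 0 in 5 libraries and at 0.01 TPM in RNF26 replicate 2. The lines did not overlap, which the rule that picked the gene required (log2 fold change -2.65, SE 0.122).

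ZNF69 and ZNF20, KRAB zinc finger genes of one cluster, followed ZNF260 in size. ZNF69 (ENSG00000198429, chr19:11887784-11914329, plus strand) was at 0.48, 0.35 and 0.43 TPM in HCT116 controls and at 7.41, 7.11 and 9.12 TPM in HCT15 controls. With RNF26 it was at 0.51, 0.47 and 0.34 TPM in HCT116 and at 6.92, 9.30 and 7.92 TPM in HCT15. ZNF20 (ENSG00000132010, chr19:12092843-12140407, minus strand) was at 0.22, 0.19 and 0.16 TPM in HCT116 controls and at 6.13, 5.54 and 7.39 TPM in HCT15 controls. Both were high in every HCT15 library and under 1 TPM in every HCT116 library, so they passed the filter through HCT15 alone. Their log2 fold changes between controls, 2.64 for ZNF69 (SE 0.124) and 2.62 for ZNF20 (SE 0.155), are therefore a description. Of 100-base windows of ZNF20 transcripts, 71.4% also occur in transcripts of other annotated genes, so its value is uncertain.

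The sequence before the RefSeq start of these 4 genes is shown because their differences between lines were the widest for which a RefSeq promoter was at hand, and CpG sites in such sequence are where DNA methylation, not measured here, can act. Each line gives the 250 bases before the RefSeq start of the gene (GRCh38.p14), 5′ to 3′ on the strand of the gene, with CG in capitals. The window of ZNF260 is chr19:36528272-36528521 (minus strand), that of ZNF134 is chr19:57613992-57614241 (plus strand), that of ZNF69 is chr19:11887532-11887781 (plus strand) and that of ZNF20 is chr19:12140351-12140600 (minus strand). The GENCODE spans given above reach farther upstream for ZNF260, ZNF20 and ZNF134. The window of ZNF260 thus lies inside its span, that of ZNF20 partly so and that of ZNF134 only with its last bases.
ZNF260: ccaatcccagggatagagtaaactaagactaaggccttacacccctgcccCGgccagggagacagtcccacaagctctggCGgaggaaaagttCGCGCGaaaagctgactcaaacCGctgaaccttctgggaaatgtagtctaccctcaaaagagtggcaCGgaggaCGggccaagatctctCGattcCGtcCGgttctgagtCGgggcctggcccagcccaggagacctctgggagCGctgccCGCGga
ZNF134: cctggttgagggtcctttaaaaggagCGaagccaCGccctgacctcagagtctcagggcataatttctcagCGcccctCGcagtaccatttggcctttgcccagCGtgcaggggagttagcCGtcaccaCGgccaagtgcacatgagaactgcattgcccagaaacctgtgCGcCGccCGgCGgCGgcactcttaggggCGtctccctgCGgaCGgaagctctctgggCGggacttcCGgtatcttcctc
ZNF69: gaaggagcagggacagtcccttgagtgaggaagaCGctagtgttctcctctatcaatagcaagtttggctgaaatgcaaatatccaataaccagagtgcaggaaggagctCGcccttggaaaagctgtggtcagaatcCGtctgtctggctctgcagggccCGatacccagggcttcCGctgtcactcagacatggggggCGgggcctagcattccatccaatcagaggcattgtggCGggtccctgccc
ZNF20: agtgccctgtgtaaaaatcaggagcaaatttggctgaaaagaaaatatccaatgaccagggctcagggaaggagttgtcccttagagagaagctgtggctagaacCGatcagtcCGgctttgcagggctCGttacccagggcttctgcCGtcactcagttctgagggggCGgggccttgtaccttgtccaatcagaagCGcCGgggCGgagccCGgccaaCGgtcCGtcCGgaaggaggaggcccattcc
They hold 15, 17, 7 and 12 CpG sites in this order. RefSeq promoters were found for 146 of the 165 genes, with a median of 16 CpG in the 250 bases, against 11 over all 35116 promoters of the table. The 5 genes on in HCT15 had a median of 15 (5 to 25) and the 6 on in HCT116 a median of 17 (8 to 28), near the median of 17 of the genes at 1 TPM or more in all libraries. No test was run on these small groups. The letters CCGGAAG, the core bound by ETS factors, were found on either strand in 31.5% of the members' promoters and in 8.52% of all. The core of YY1, AAGATGGCG, was found in 3.42% and 0.652%, and TATAAA in 2.74% and 10.7%. The ETS and YY1 letters can share AAG where they adjoin, so 1 site can hold both, and a match is no evidence of binding. The promoters of the table are not matched to the members' for CpG content or level. Since CCGGAAG and AAGATGGCG each hold a CG and TATAAA none, base composition can enter these shares.

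The other genes on in HCT15 were all listed at or near 0 in HCT116. ZNF563, which has a KRAB pattern, was at 0 in 5 HCT116 libraries and 0.04 TPM in the other, and at 3.28 to 5.35 TPM in HCT15. ZNF429, of the cluster near the centromere, reached at most 0.01 TPM in HCT116 and 2.52 to 3.20 TPM in HCT15. ZNF420, known as a KRAB protein that binds p53, was listed at 0 in all 6 HCT116 libraries and at 2.04 to 2.76 TPM in HCT15. ZNF256 was listed at 0 in all 6 HCT116 libraries and at 1.90 to 3.14 TPM in HCT15. Levels within HCT15 overlapped between control and RNF26 libraries for each of these 4 genes.

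The genes on in HCT116 stood partly side by side. ZNF350, known as a corepressor partner of BRCA1, was at 1.39, 2.05 and 1.64 TPM in HCT116 controls and 2.54, 1.99 and 2.47 TPM with RNF26, and at 0.04 TPM or less in HCT15. ZNF614 was at 1.95 to 2.27 TPM in HCT116 and at 0.04 TPM or less in HCT15. ZNF615, which lies between them on the same strand and is named after its values were seen, was at 0.64 to 2.51 TPM in HCT116 and listed at 0 in all 6 HCT15 libraries. So 3 neighbours from chr19:51964343 to 52030240 were low together in HCT15. Farther along, ZNF304, a KRAB zinc finger gene, was at 3.77, 3.70 and 3.80 TPM in HCT116 controls and at 0, 0 and 0.02 TPM in HCT15 controls. ZNF547, the next gene, was at 1.15 to 2.21 TPM in HCT116 and listed at 0 in all HCT15 libraries. ZNF548, the one after it, was at 2.39 to 3.02 TPM in HCT116 and at 0.14 TPM or less in HCT15. ZNF530 and ZNF134 form a further adjacent pair, with ZNF530 at 1.04 to 1.64 TPM in HCT116 and listed at 0 in HCT15. In these runs the low line was HCT15 for each gene, in control and RNF26 libraries alike.

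**Figure D2:**
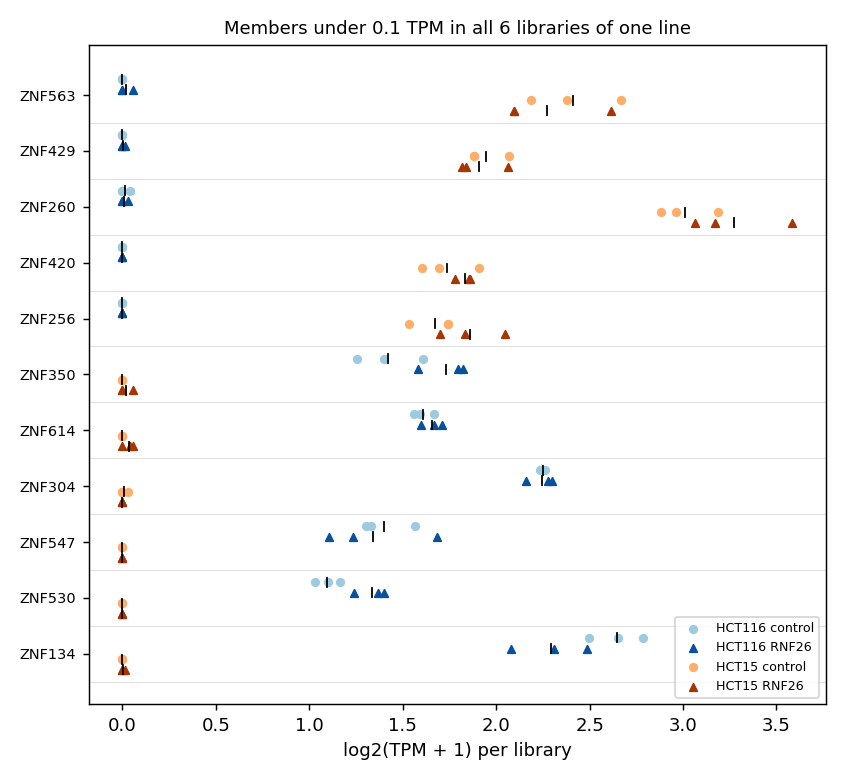
Levels in each library (horizontal axis, log2(TPM + 1)) of the 11 genes under 0.1 TPM in all 6 libraries of one line; circles are control and triangles RNF26 libraries, blue HCT116 and orange to brown HCT15, and short bars are group means (n = 3). The 5 upper genes, led by ZNF563 in position, lie at 0 or nearly so in HCT116 and the 6 lower genes in HCT15.

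Further genes differed widely without meeting that rule. ZNF302 was at 4.13, 4.29 and 4.75 TPM in HCT116 controls and listed at 0 in all 3 HCT15 controls, with 0.24, 0.42 and 0.15 TPM in HCT15 RNF26 libraries. ZNF114 averaged 3.74 ± 0.656 TPM in HCT116 and 0.203 ± 0.0850 TPM in HCT15 controls (SD, n = 3 each, log2 fold change -1.97). ZNF525, at 4.11 ± 0.163 and 0.377 ± 0.248 TPM, was likewise lower in HCT15 (-1.91). ZNF85 was at 1.83 to 2.47 TPM in HCT116 controls and at 0, 0.22 and 0 TPM in HCT15 controls (-1.55). ZNF45 (5.68 ± 1.06 and 1.73 ± 0.236 TPM, -1.28) and ZNF264 (5.92 ± 0.463 and 2.00 ± 0.420 TPM, -1.22) were lower in HCT15 but present in both lines. Upward, ZNF358 (1.74 ± 0.519 and 10.2 ± 0.740 TPM, 2.04), ZNF254 (0.643 ± 0.190 and 5.53 ± 0.181 TPM, 2.00) and ZNF888 (3.59 ± 0.630 and 17.4 ± 1.30 TPM, 2.01) were higher in HCT15. ZNF253 was at 0, 0.91 and 0 TPM in HCT116 and 4.14, 3.49 and 4.46 TPM in HCT15 controls (2.01). ZNF571 was higher in HCT15 as well (1.94), with HCT15 control replicate 3 at 5.97 TPM and the other HCT15 controls at 2.37 and 2.30 TPM. For the 11 genes from ZNF302 to ZNF571 the limma adjusted p between controls ranged from 7.02e-09 (ZNF302) to 2.75e-05 (ZNF571). Genes that reached 1 TPM in 1 line alone, such as ZNF302, passed the filter through that line. For them this p is a description.

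Clusters differed in the balance of these calls. Over all tested genes 43.6% were higher and 26.0% lower in HCT15 controls, with a median log2 fold change of 0.22. Whether a cluster departs from that background was not tested. The filter bears on these counts too, since members that passed through 1 line alone were likely to differ. In the cluster from ZNF653 to ZNF791 (chr19:11483427-12640098), 16 of 18 members were higher in HCT15 and 0 lower, with a median log2 fold change of 0.93. With median-ratio scaling, quantile normalization or GC content and length corrected for, 14 were higher and 0 lower in each case. A filter of 5 TPM left 8 members, of which 6 were higher and 0 lower (median 0.636, all genes 0.224). This cluster holds ZNF69, ZNF20 and ZNF563, which passed the filter through HCT15 alone, so their direction was fixed by it. Of its members, 5 share over 50% of their windows with other genes' transcripts. In the cluster from ZNF575 to ZNF180 (chr19:43525497-44500524) 3 of 16 members were higher and 7 lower, with a median of -0.25. The cluster from ZNF101 to ZNF254 (chr19:19668796-24129961), next to the centromere, passed the filter with 17 of 37 annotated genes, of which 10 were higher and 4 lower. The largest clusters had both directions: from ZNF175 to ZNF331 (chr19:51571298-53580269) 14 of 28 members were higher and 8 lower, and from ZNF264 to ZNF446 (chr19:57191500-58481230) 11 of 31 were higher and 10 lower. In the cluster from ZNF628 to ZNF835 (chr19:55476332-56671783) all 8 members that passed were higher in HCT15. From ZNF414 to ZNF846, 7 of 12 members were higher and 2 lower, and from ZNF565 to ZNF573, 8 of 15 were higher and 1 lower. Between members next to each other in a cluster, Pearson r of the line difference was 0.20 over 147 pairs and 66.0% had the same sign. At 5 places apart r was 0.0528 over 105 pairs, with 59.0% of the same sign. The pairs share genes and libraries, and neighbours can share overlapping transcripts, so these are descriptions.

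In a run of 3 neighbours of the same strand within the cluster from ZNF175 to ZNF331, HCT15 was higher. ZNF320 averaged 4.86 ± 0.593 and 11.1 ± 0.799 TPM in HCT116 and HCT15 controls (SD, n = 3 each), and 99.5% of its windows are shared with other annotated genes. ZNF888 is the middle gene, given above, and ZNF816, at 4.62 ± 1.23 and 18.01 ± 1.18 TPM, is the last. ZNF841 and ZNF836, close to the genes low in HCT15 of the same cluster, went the other way, with ZNF841 at 0.02 TPM or less in HCT116 and 0.80 to 1.76 TPM in HCT15. ZNF836 was at 0.04 TPM or less in HCT116 and 0.89 to 1.88 TPM in HCT15. ZNF320, ZNF816, ZNF841 and ZNF836 were picked after their values were seen.

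With RNF26 in HCT15, most of the zinc finger genes did not pass the test. Of 165, 13 rose, 19 fell and 133 were not called (limma, adjusted p under 0.05), whereas 5.39% of all tested genes rose and 31.2% fell. The zinc finger genes thus had 7.88% rises and 11.5% falls, and their share of falls lay under the background. That background is not matched for level or GC content. Under 50% GC, 1.67% of the zinc finger genes and 18.9% of all tested genes fell, and at 50% or more 37.8% and 45.8% did. No comparison at matched levels was run. Their median log2 fold change was -0.01 and that of all tested genes -0.17. The libraries of the 2 groups did not overlap for 20 genes upward and 29 downward, where 7.23% and 35.9% of all tested genes did so. Among 221 ZNF genes of other chromosomes 10 rose and 73 fell, with a median of -0.16. Among 780 other coding genes of chromosome 19, 21 rose and 414 fell, with a median of -0.41. The split of the members moved with the scaling, to 35 rises and 12 falls with median-ratio scaling, 39 and 11 with quantile normalization and 21 and 6 with GC content and length corrected for. The median log2 fold change of all tested genes moved as well, to 0, -0.00216 and -0.0121 in the same order. The move of the counts is therefore not particular to the members. The shares of all genes called under these settings are not given here. Relative to the median of all genes, that of the members was 0.155 higher as deposited and 0.124, 0.137 and 0.123 higher under these settings. With no filter on low values the difference of the medians was -0.00574, and the median of all genes was -0.00465. In a fit of HCT15 alone 8 rose and 12 fell, and without HCT15 control replicate 3, 12 rose and 17 fell.

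The largest rises were in KRAB genes of several clusters. ZNF585A stood at 7.62, 7.83 and 3.27 TPM in HCT15 controls and 12.76, 12.27 and 11.73 TPM with RNF26, without overlap, and control replicate 3 was the low one. Its log2 fold change was 0.95 (SE 0.247, limma adjusted p = 0.0117), and this call ended when HCT15 was fitted alone (adjusted p = 0.0726, range over all settings 0.00382 to 0.0726). ZNF226, among the most abundant members, stood at 18.41, 22.39 and 14.21 TPM in controls and 31.54, 31.17 and 35.09 TPM with RNF26. All 3 RNF26 libraries lay above the controls (0.82, SE 0.162, limma adjusted p = 0.00259). ZNF559 stood at 2.80, 3.14 and 2.51 TPM in controls and 5.69, 7.92 and 4.49 TPM with RNF26 (0.86, SE 0.191, limma adjusted p = 0.00501).

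ZNF417 (1.04 ± 0.304 to 2.43 ± 0.193 TPM, log2 fold change 0.76), ZNF155 (1.35 ± 0.583 to 2.87 ± 0.144 TPM, 0.75) and ZNF780A (11.5 ± 1.71 to 17.6 ± 2.05 TPM, 0.57) rose as well (SD, n = 3 each). ZNF417 and its close relative ZNF587 are known for binding endogenous retroviruses, and 26.0% of ZNF417 windows are shared with other genes. ZNF480 (0.51, limma adjusted p = 0.0190) and ZNF567 (0.51, limma adjusted p = 0.0206) completed the 8 largest rises among genes with a higher group mean of 2 TPM or more. Below that level ZNF432, named after its values were seen, rose from 0.627 to 1.53 TPM (0.64, limma adjusted p = 0.0234). It reached 1 TPM in exactly 3 libraries, so the filter may have let it in through its level with RNF26 in HCT15. Its rise is therefore given as a description. The call was lost without HCT15 control replicate 3 (0.0827) or RNF26 replicate 2 (0.0857) or 3 (0.0502) and in 2 other settings, in a range of 0.0110 to 0.104. The call of ZNF480 was lost when HCT15 was fitted alone (adjusted p = 0.111) or when HCT15 RNF26 replicate 2 (0.0668) or 3 (0.0501) was left out, in a range of 0.00329 to 0.111. That of ZNF567 was lost when low values were kept (0.0528), when HCT15 was fitted alone (0.106) or when HCT15 control replicate 3 (0.0751) or RNF26 replicate 2 (0.0710) was left out, in a range of 0.00160 to 0.106. ZNF155, ZNF224 and ZNF226 lie in one cluster, that from ZNF575 to ZNF180, where 3 of 16 members rose and 0 fell. Over all tested genes 5.39% rose and 31.2% fell. The cluster from ZNF414 to ZNF846 also had 3 rises, with 2 falls, among 12 members. ZNF302, listed at 0 in the HCT15 controls, passed the test upward (0.34, limma adjusted p = 0.0385) at levels of 0.15 to 0.42 TPM. This call was lost in 10 of 24 settings, among them those without any 1 of the HCT15 controls (0.0702 to 0.0806), in a range of 4.53e-04 to 0.267.

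The largest falls were mostly in genes without a KRAB pattern. ZNF414 stood at 11.91, 8.22 and 8.78 TPM in HCT15 controls and 4.88, 4.25 and 4.25 TPM with RNF26, a fall without overlap (log2 fold change -0.95, SE 0.179, limma adjusted p = 0.00196). ZNF580, whose product has been studied in endothelial cells, stood at 17.26, 14.88 and 14.77 TPM in controls and 8.78, 7.14 and 8.69 TPM with RNF26 (-0.86, SE 0.124, limma adjusted p = 4.29e-04). ZNF579 stood at 3.54, 4.65 and 5.19 TPM in controls and 1.33, 1.94 and 2.44 TPM with RNF26 (-0.92, SE 0.160, limma adjusted p = 0.00123). The RNF26 libraries lay below all controls for these 3 genes.

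ZNF358 (10.2 ± 0.740 to 5.34 ± 0.251 TPM, log2 fold change -0.81), ZNF444 (8.29 ± 0.316 to 4.63 ± 0.656 TPM, -0.73) and ZNF574 (4.24 ± 0.227 to 2.39 ± 0.202 TPM, -0.63) fell too (SD, n = 3 each). ZNF430, a KRAB gene, fell by 0.61 (limma adjusted p = 0.00986), and the call was lost with quantile normalization (0.0539) or when HCT15 was fitted alone (0.0644), in a range of 0.00144 to 0.0644. ZNF653 fell by 0.75 (limma adjusted p = 0.0186), and it missed the threshold when low values were kept (0.0551) and with median-ratio scaling (0.0638), quantile normalization (0.0866) or GC and length correction (0.172). Leaving out HCT15 control replicate 1 (0.0513) or HCT15 RNF26 replicate 2 (0.0633) or 3 (0.0574) did the same, in a range of 0.0113 to 0.216. With GC and length corrected for, ZNF574 was not called (-0.14, limma adjusted p = 0.288, range 5.47e-04 to 0.302). Nor was ZNF787, which fell by 0.51 as deposited (35.5 ± 3.46 to 24.6 ± 1.04 TPM; limma adjusted p = 0.483 with the correction, range 0.00113 to 0.491).

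**Figure D3:**
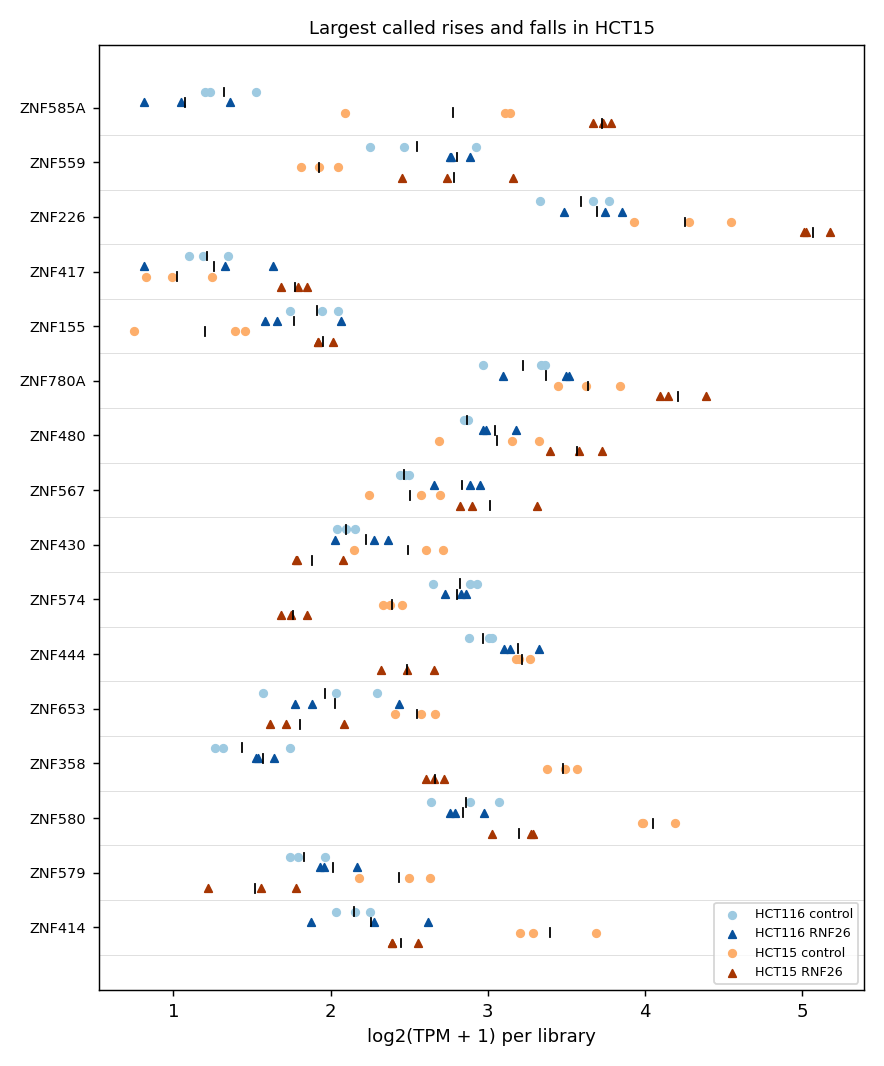
Levels in each library (horizontal axis, log2(TPM + 1)) of the 8 largest called rises and 8 largest called falls with RNF26 in HCT15, in order of their log2 fold change from ZNF585A to ZNF414; circles are control and triangles RNF26 libraries, blue HCT116 and orange to brown HCT15, and short bars are group means (n = 3). The choice of genes required a mean of 2 TPM or more in the higher group and triangles that do not overlap the circles in HCT15.

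Genes without a KRAB pattern and GC-rich genes held most of the falls, and the groups overlap. Of 139 genes with the pattern 13 rose and 8 fell, with a median log2 fold change of 0.00 and a median transcript GC content of 45.8%. Of 26 genes without it 0 rose and 11 fell, with a median of -0.25 and a GC content of 61.4%. Within the 7 of these under 50% GC, 0 rose and 0 fell (median 0.12, 0 with an unadjusted p under 0.05), and within the 19 at 50% or more 0 rose and 11 fell (median -0.51). Among genes with a KRAB pattern 12 rose and 2 fell of 113 under 50% GC, and 1 rose and 6 fell of 26 at 50% or more. All tested genes had the same direction: 8.48% rose and 18.9% fell of those under 50% GC, and 2.38% rose and 45.8% fell of those at 50% or more. Across the 165 genes the HCT15 difference and GC content had a Spearman rho of -0.50 (Pearson r -0.57), and across all tested genes a rho of -0.42. These values come from the same libraries and are given as a description. These counts move with the scaling, as does the median of all tested genes. Of genes with a KRAB pattern 29 rose and 3 fell with median-ratio scaling, 32 and 2 with quantile normalization, and 18 and 1 with GC content and length corrected for. Of genes without it 6 rose and 9 fell, 7 and 9, and 3 and 5 in the same order. The difference between control lines had no such relation to GC content (rho 9.38e-04 across the 165 genes).

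**Figure D4:**
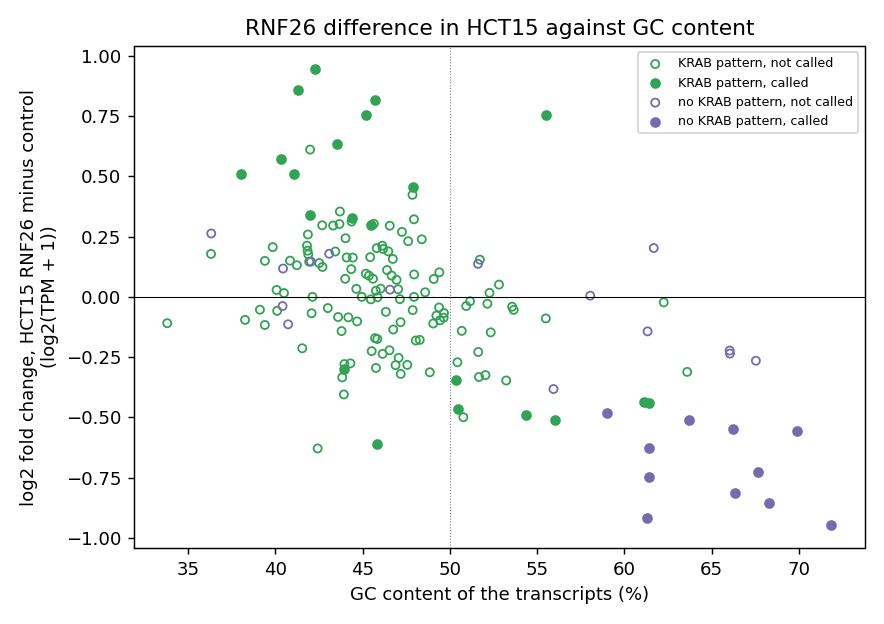
Log2 fold change with RNF26 in HCT15 (vertical axis, log2(TPM + 1), limma, n = 3 each) against the GC content of the transcripts in percent (horizontal axis) for the 165 genes; green marks genes with and purple genes without a KRAB pattern, filled points are called, and the dotted line is 50% GC. Called falls lie mostly at 50% GC or more (17 of 19) and called rises mostly below it (12 of 13).

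The GC-rich genes without a KRAB pattern include a block of 8 neighbours, ZNF579, ZNF524, ZNF865, ZNF784, ZNF580, ZNF581, ZNF787 and ZNF444 (chr19:55576770-56160893). Of these, 6 fell with RNF26 in HCT15, with a median log2 fold change of -0.55 for the block. ZNF581 (27.4 ± 5.71 and 31.2 ± 0.896 TPM, 0.20, limma adjusted p = 0.290) and ZNF524 (14.9 ± 2.84 and 12.4 ± 1.94 TPM, -0.24, limma adjusted p = 0.278; SD, n = 3 each) were not called. ZNF581 passed upward with median-ratio scaling (0.0477), quantile normalization (0.0368) or GC and length corrected for (0.0113), in a range of 0.0113 to 0.870. The genes ZNF580 and ZNF581 overlap in the annotation on the same strand, so reads of one can be counted to the other. All 8 were higher in HCT15 than in HCT116 controls. ZNF473, a gene outside the block that takes part in the processing of histone mRNA, stood at 10.91, 10.82 and 14.25 TPM in HCT15 controls and 7.69, 9.01 and 7.89 TPM with RNF26 (-0.49, limma adjusted p = 0.0102). It missed the threshold with median-ratio scaling (0.0815), quantile normalization (0.145) or GC and length corrected for (0.189), in a range of 0.00723 to 0.220.

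With RNF26 in HCT116, 0 of 165 genes were called by limma, and 7 had an unadjusted p under 0.05. Of all tested genes 0.00642% were called, which was 1 gene, RNF26. The median log2 fold change was 0.00479, and the 2 groups of libraries were apart without overlap for 11 genes upward and 5 downward (7.25% and 5.56% of all tested genes). The smallest p was that of ZNF649, at 1.91, 1.34 and 1.55 TPM in controls and 2.91, 2.63 and 2.04 TPM with RNF26 (log2 fold change 0.44, unadjusted p = 0.00883, limma adjusted p = 1.00). ZNF134, the gene off in HCT15, followed with 5.28 ± 0.620 and 3.93 ± 0.685 TPM (SD, n = 3 each, -0.35, limma unadjusted p = 0.0141). ZNF701 (1.21 and 1.85 TPM) and ZNF350 (1.69 and 2.33 TPM) came next. For these 4 genes adjusted p over all settings stayed between 0.567 and 1.00.

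The RNF26 differences of the lines were compared by an interaction term. RNF26 itself rose by a log2 fold change of 4.05 in HCT116 and 0.98 in HCT15. The line and the size of the RNF26 rise cannot be told apart in this comparison. The HCT15 difference was higher than that of HCT116 for 5 of the 165 genes and lower for 9 (limma, adjusted p under 0.05), where 1.80% and 18.7% of all tested genes were called. ZNF444 had the smallest p: it stood at 7.03, 6.36 and 7.13 TPM in HCT116 controls and 7.82, 9.04 and 7.60 TPM with RNF26, and at 8.65, 8.16 and 8.06 TPM and then 5.30, 3.99 and 4.60 TPM in HCT15. RNF26 libraries were above the controls in HCT116 and below them in HCT15. The difference of the log2 fold changes was -0.95 (SE 0.143, limma adjusted p = 0.00235). ZNF358 (-0.94, limma adjusted p = 0.00546), ZNF579 (-1.10, 0.00798) and ZNF580 (-0.83, 0.00891) followed. With GC and length corrected for, these 3 missed the threshold (limma adjusted p = 0.0725, 0.0756 and 0.0632), and ZNF580 did so with quantile normalization (0.0667). Over all settings adjusted p was 0.00191 to 0.0821 for ZNF358, 0.00703 to 0.0756 for ZNF579 and 0.00566 to 0.0933 for ZNF580. That of ZNF444 stayed under 0.05 in every setting run (0.00160 to 0.0287). The count of 5 higher genes fell to between 0 and 2 without any single library other than HCT15 control replicate 2 or 3, without which it was 5.

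KRAB zinc finger proteins act through shared partners, and 48 genes for such partners and for the silencing machinery were tested as a list chosen with earlier results of these data known. With RNF26 in HCT15, 3 rose, 28 fell and 17 were not called, with a median log2 fold change of -0.38, against 5.39% rises, 31.2% falls and a median of -0.17 over all tested genes. With median-ratio scaling or quantile normalization 10 of them rose and 15 fell. Their medians were then -0.17 and -0.147, against 0 and -0.00216 over all genes. In a fit of HCT15 alone 1 rose and 22 fell. With GC content and length corrected for, 4 rose and 19 fell, with a median of -0.223 against -0.0121 over all genes. TRIM28, the scaffold that KRAB boxes bind, fell from 131 ± 16.8 to 83.2 ± 5.50 TPM (SD, n = 3 each, log2 fold change -0.64, SE 0.112, limma adjusted p = 0.00120). The methyltransferase genes SETDB1 (37.0 ± 4.89 to 26.4 ± 3.01 TPM, -0.47) and EHMT2 (40.5 ± 0.627 to 22.8 ± 0.477 TPM, -0.80) fell. So did DNMT1, the maintenance DNA methyltransferase (38.0 ± 3.80 to 18.8 ± 2.27 TPM, -0.98), and UHRF1, which guides it to DNA (23.7 ± 4.20 to 12.4 ± 0.696 TPM, -0.87). Over all settings the smallest falls of TRIM28, EHMT2, DNMT1 and UHRF1 were -0.298, -0.355, -0.767 and -0.423. The rises were CBX3, which encodes the heterochromatin protein HP1 gamma (0.26), TASOR (0.33), a subunit of the HUSH silencing complex, and its relative TASOR2 (0.33). The call of SETDB1 was lost with median-ratio scaling (limma adjusted p = 0.0789) and quantile normalization (0.0918), and those of CBX3 and TASOR when HCT15 was fitted alone (0.0824 and 0.0565) or without HCT15 control replicate 1 (0.0613 and 0.103), among other settings, in ranges of 0.00310 to 0.0918, 5.58e-04 to 0.0824 and 0.00116 to 0.108. In HCT116, 0 of 48 were called. Between controls 24 were higher and 12 lower in HCT15, where 43.6% and 26.0% of all tested genes were, and with median-ratio scaling 20 and 19. TRIM28 stood at 325 ± 21.4 TPM in HCT116 and 131 ± 16.8 TPM in HCT15 controls (-1.31, limma adjusted p = 9.77e-07), and SETDB1 at 17.4 ± 1.86 and 37.0 ± 4.89 TPM (1.04). ZFP57, a KRAB protein that protects imprinted methylation and lies on another chromosome, was listed at 0 in all HCT116 libraries and at 34.8 to 38.9 TPM in HCT15 controls.

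Other zinc finger genes of chromosome 19, named ZFP, ZIM, ZIK, ZSCAN, MZF or PEG, were tested in 5 of 14 cases. MZF1 was higher in HCT15 controls (2.70 and 11.0 TPM) and fell with RNF26 there to 7.40 TPM (log2 fold change -0.51, SE 0.103, limma adjusted p = 0.00279), but not by the test with quantile normalization (0.0789) or GC and length corrected for (0.870), in a range of 8.55e-04 to 0.875. ZSCAN5A was lower in HCT15 controls (5.04 and 1.94 TPM) and rose with RNF26 there to 3.25 TPM (0.53, SE 0.139, limma adjusted p = 0.0118), a call lost without HCT15 RNF26 replicate 1 (0.0517, range 0.00340 to 0.0517).

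Reads of close relatives limit some of these values. Of the 165 genes, 136 shared at most 10% of their 100-base windows with transcripts of other genes, and 8 shared over 50% (ZNF763, ZNF724, ZNF490, ZNF20, ZNF564, ZNF709, ZNF177 and ZNF320). Among the 136, 74 were higher and 32 lower between control lines, where 43.6% and 26.0% of all tested genes were. With RNF26 in HCT15, 10 of them rose and 15 fell, where 5.39% and 31.2% of all tested genes did. In the annotation 115 of the 165 genes overlap another gene and 83 overlap one on the opposite strand. The libraries were made with a stranded kit, but the sources used here do not state whether the quantification used strand. Whether reads of pairs on opposite strands were told apart is therefore unknown.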

How the data were processed

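The authors deposited 1 table of TPM with 1 column per library, and all 12 columns were used (0 per-sample columns were left out). Per the labels' protocols, poly(A) RNA was selected and libraries were made with a stranded kit. The tools fastp, HISAT2, StringTie and RSEM and the build GRCh38 are named per the submitters' processing notes, without versions, order or annotation release. TPM keeps no depth, so no counting interval is given. Groups came from sample titles. The most alike pair of libraries differed in 15097 genes, so none was counted as a copy.

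From these values log2(TPM + 1) was computed, on which fold changes of low genes are understated, and 15584 genes with 1 TPM or more in at least 3 libraries were fitted with limma 3.58.1 in R 4.3.3 (1 mean per group, eBayes with a trend, 8 residual degrees of freedom). Tests were two-sided, and a Benjamini-Hochberg adjusted p under 0.05 over all tested genes was a call. The procedure was tested on simulated data. The members and lists were chosen with earlier results of these data known.

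Positions, GC content, transcript length and coding sequence came from GENCODE 29, symbols from a table of gene names, and promoters from RefSeq (GRCh38.p14). Named members were the 8 most abundant, the 8 largest rises and falls in HCT15 and the 10 largest line differences each way (called, no overlap, a higher group mean of 2 TPM or more), the 4 smallest p in HCT116 and in the interaction, genes on in 1 line, the first, last and most abundant of each cluster, and the KRAB partners. Others are said to be chosen later. The counts of members called, their median relative to all genes, the named members in the comparison they were named for and, added after seeing the data, some further genes, the KRAB partners and the clusters were recomputed with other pseudocounts, filters, scalings, fits and corrections and without each library in turn.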

Additional observations from a re-analysis of the deposited data

Results flagged for a closer look

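The RNF26 difference of 14 members differed between lines by the interaction test (limma, adjusted p under 0.05). Of the members 3.03% were called higher and 5.45% lower, where 1.80% and 18.7% of all tested genes were. The share of calls in either direction over all tested genes was 20.5%, so the members do not stand out by their number. Values are the HCT15 minus the HCT116 log2 fold change. It was higher in HCT15 for ZNF585A (1.19), ZNF780B (0.995), ZNF155 (0.899), ZNF226 (0.713) and ZNF562 (0.425). It was lower in HCT15 for ZNF579 (-1.10), ZNF414 (-1.06), ZNF444 (-0.95), ZNF358 (-0.942) and ZNF580 (-0.834). The same held for ZNF430 (-0.736), ZNF574 (-0.608), ZNF875 (-0.528) and ZNF787 (-0.48). The 5 genes on the higher side all have a KRAB pattern, and 7 of the 9 on the lower side do not. In HCT116 none of the 14 was called on its own.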

How the results depend on the processing

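In HCT15 the 13 rises and 19 falls moved to 35 and 12 with median-ratio scaling, 39 and 11 with quantile normalization, 21 and 6 with the GC content and length correction and 8 and 12 in a separate fit, and falls to 11 with a filter of 5 TPM, which leaves fewer genes. The median log2 fold change of all tested genes moved too, from -0.166 to 0 (median-ratio scaling), -0.00216 (quantile normalization) and -0.0121 (GC correction). Without 1 library rises were 10 to 13 and falls 16 to 22. The 88 higher and 38 lower genes between controls were 51 and 13 with a filter of 5 TPM, and 82 to 88 and 34 to 39 without 1 library. In the interaction, 5 higher genes became 3 with a pseudocount of 0.1, 0 with no filter, 3 with a filter of 5 TPM and 9 with quantile normalization. The 9 lower became 5 with median-ratio scaling, 3 with quantile normalization and 1 with the GC correction. Without 1 library they were 0 to 5 and 6 to 13. The cause was not tested. The replicate numbers share no stated batch, and the correlation of deviations within same-numbered pairs was over 0.1 in 1 of 6 (-0.0424 to 0.146), with 1 of 6 pairs highest for its own number. With the replicate block the 5 higher genes of the interaction became 1. With the replicate block and the GC correction, falls in HCT15 were 6 and the interaction had 3 higher and 1 lower. HCT116 had 0 calls in every setting run. Of 1369 values of named members under the alternatives, 1321 were counted as unchanged, 29 lost a call, 19 gained one and 0 calls reversed. A change of sign in a result not called as deposited was counted as unchanged. ZNF428 with RNF26 in HCT15 was such a case, at -0.143 as deposited and up to 0.263 in other settings. Its smallest limma adjusted p was 0.0367, a call upward against a fall that was not called. The members' median in HCT15 relative to all genes was 0.155, with -0.00574 with no filter and up to 0.188 elsewhere. Depth cannot be judged from TPM.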
